A study of Mus musculus with 29 samples.

Results

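The 40 genes described here code for the machinery that copies and divides a cell, from the licensing of replication origins to the final cut between daughter cells. They were chosen by name as a set of cell cycle and proliferation genes and followed over every library of the study. All 40 were found among the 51456 genes of the deposited files, and all 40 were among the 18787 genes tested, whose mean value over the 29 libraries was at least 0.1. In aortic arch of diseased mice nearly all of the mitotic members were at least 2-fold above wild type, and most of the replication helicase members and Pcna were close to it. No member passed the test between antibody and vehicle.

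A resting cell that re-enters the cycle loads the MCM helicase onto its replication origins with the help of Cdc6, fires them with Cdc45, and copies its DNA with the sliding clamp Pcna and a supply of nucleotides from ribonucleotide reductase, thymidylate synthase and thymidine kinase. Cdk1 with cyclins A and B then drives the cell into mitosis, where Aurora and Polo-like kinases, kinesin motors and centromere proteins sort the chromosomes, and the anaphase-promoting complex ends the division by destroying cyclins. S phase genes are known targets of E2F factors. Many mitotic genes are held down in resting cells by the DREAM complex and switched on by MYB-MuvB and FoxM1, which act through a cell cycle homology region (CHR). The promoters of these mitotic genes often hold CCAAT boxes too. Smooth muscle and endothelial cells of the healthy adult aorta rarely divide, and dividing macrophages and vascular cells are a known feature of atherosclerotic and angiotensin-driven aortic lesions.

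RNA was sequenced from the aortic arch of male C57BL/6 mice, with an age label of 14 weeks, kept on standard chow; per the protocol some ApoE KO mice died early, mainly of aortic rupture, so the libraries come from survivors. In 9 libraries the mice lacked apolipoprotein E (ApoE KO), carried a subcutaneous pump with angiotensin II (AngII) at 15.27 mg/mL and 0.11 µL/hr, and were injected with vehicle; these are called the vehicle libraries here, numbered 1 to 9. In 10 libraries, numbered 10 to 19, ApoE KO mice with the same pump received an antibody against sclerostin (Scl-Ab), a secreted inhibitor of Wnt signalling, at 10 mg/kg weekly for 4 weeks. The 10 wild-type (WT) libraries, numbered 20 to 29, came from mice with vehicle in pump and injection, so genotype and AngII differ together between WT and the other groups and their parts cannot be told apart. The protocol gives 9 WT mice for 10 WT libraries, so n counts libraries, and a p-value sets a group difference against the spread between libraries. Should some WT libraries share a mouse, p-values against WT may be too small, which could not be checked.

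The targeted gene Apoe had values of 146 to 363 in WT, 3.32 to 9.23 in the vehicle libraries and 4.64 to 12.5 in the Scl-Ab libraries, far lower in both ApoE KO groups. Values are on an FPKM-type scale, per kilobase of transcript, on which 1 unit in a transcript of 2 kb stands for an estimated 31.8 to 43.7 fragments depending on the library. Smooth muscle markers such as Myh11 and Acta2 were high in all groups, with summed values of 17285 to 20726 in WT, 4924 to 16635 in the vehicle and 5558 to 13406 in the Scl-Ab libraries. Of the 8 smooth muscle markers, 7 were called lower than WT in either diseased group. The 12 macrophage markers, all called higher than WT in both, summed to 104 to 351 in WT, 1000 to 3087 in the vehicle and 809 to 1914 in the Scl-Ab libraries, without overlap with WT, and the 8 T cell markers to 0.389 to 1.11, 2.51 to 5.43 and 1.87 to 6.14. These shifts in cell type markers run beside every difference from WT given here, and their part in the members' change was not tested. In whole tissue a change in the number of cells of a type and a change in RNA per cell cannot be told apart. Vehicle library 5 and Scl-Ab library 13 stood apart from their groups in most members. The means of Mki67 and the counts of members called are therefore given with and without them. Other means and folds of members include both libraries unless stated.

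The promoters of the members carry the sequence elements named above, and a few are printed to show how those of mitotic and of replication genes differ in these letters. In the RefSeq promoter table for GRCm38, which holds 250 bases before and 50 after each start, 35 of the 40 members matched by symbol, with 37 promoters; Aurkb, Ccna2, Kif20a, Mcm4 and Tpx2 did not. The CHR letters searched were TTTGAA and TTTAAA, the CCAAT box was CCAAT, and the E2F letters were TTTGGCGC, TTTCCCGC and TTCCCGCC, each on both strands, with overlapping matches counted. Below are up to 200 bases before the start of 6 mitotic members, 5′ to 3′ on the gene's strand, with bases of any annotated exon left out and capitals marking every such match.
Mki67: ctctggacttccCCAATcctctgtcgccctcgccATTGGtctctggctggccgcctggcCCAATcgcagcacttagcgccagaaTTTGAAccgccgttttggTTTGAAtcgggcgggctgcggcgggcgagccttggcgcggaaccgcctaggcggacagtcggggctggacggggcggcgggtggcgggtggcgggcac
Top2a: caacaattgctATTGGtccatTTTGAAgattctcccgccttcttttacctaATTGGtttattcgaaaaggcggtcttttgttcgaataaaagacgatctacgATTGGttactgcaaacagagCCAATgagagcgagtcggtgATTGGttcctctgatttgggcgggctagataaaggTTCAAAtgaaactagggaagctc
Cdk1: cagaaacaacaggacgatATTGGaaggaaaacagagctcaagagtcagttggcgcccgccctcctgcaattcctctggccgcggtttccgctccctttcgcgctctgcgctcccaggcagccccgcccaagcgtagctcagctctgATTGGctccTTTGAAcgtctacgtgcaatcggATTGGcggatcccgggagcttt
Ccnb2: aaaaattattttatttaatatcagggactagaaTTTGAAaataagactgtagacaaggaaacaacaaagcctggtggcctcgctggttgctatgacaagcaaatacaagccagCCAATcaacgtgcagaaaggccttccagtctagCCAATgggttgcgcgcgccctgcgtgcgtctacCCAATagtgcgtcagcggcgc
Cenpf: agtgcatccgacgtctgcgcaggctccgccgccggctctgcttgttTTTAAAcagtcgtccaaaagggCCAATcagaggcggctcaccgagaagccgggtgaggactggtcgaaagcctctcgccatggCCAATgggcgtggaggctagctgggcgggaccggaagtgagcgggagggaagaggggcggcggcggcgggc
Cdc20: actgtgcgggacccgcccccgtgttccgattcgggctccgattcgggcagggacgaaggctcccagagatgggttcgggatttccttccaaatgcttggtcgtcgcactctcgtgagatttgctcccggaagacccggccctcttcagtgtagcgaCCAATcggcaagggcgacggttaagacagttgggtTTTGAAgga
These stretches lie on the minus strand at chr7:135716380-135716579, chr11:99024190-99024389, chr10:69352939-69353138, chr9:70421555-70421754, chr1:189688087-189688286 and chr4:118437353-118437552. Each holds a CHR match and at least 1 CCAAT box, and the stretch of Top2a holds 5 CCAAT boxes and 2 CHR matches. The following 3 stretches precede the RefSeq start of Mcm6 and Mcm5, subunits of the MCM helicase, and of its loader Cdc6.
Mcm6: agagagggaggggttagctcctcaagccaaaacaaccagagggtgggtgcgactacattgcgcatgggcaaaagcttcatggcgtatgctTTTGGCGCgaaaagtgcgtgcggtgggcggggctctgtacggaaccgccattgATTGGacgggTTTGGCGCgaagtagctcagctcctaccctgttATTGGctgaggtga
Mcm5: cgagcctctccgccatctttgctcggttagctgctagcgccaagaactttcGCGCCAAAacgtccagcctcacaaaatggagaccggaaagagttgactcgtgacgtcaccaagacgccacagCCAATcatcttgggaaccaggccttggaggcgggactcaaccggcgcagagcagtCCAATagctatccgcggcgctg
Cdc6: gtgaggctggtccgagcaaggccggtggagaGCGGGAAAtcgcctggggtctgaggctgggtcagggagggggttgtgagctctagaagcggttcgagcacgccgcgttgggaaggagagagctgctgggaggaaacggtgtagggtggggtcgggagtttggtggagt
They lie at chr1:128359706-128359905 on the minus strand and at chr8:75109309-75109508 and chr11:98907982-98908150 on the plus strand. All 3 carry E2F letters, with 2 matches before Mcm6. None of these stretches carries the CHR letters, but the full window of Mcm5 holds 1 CHR match outside the bases printed. The stretch of Cdc6 lies inside the gene as annotated by GENCODE, which begins at chr11:98907801, and precedes a RefSeq start further in.

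Counted over the full windows, CHR letters were in 27 of the 37 member promoters (73.0%), against 27.6% of all 32851 promoters in the table. At least 1 CCAAT box was in 83.8% of member promoters and 37.4% of all promoters, and a CHR match together with 2 or more CCAAT boxes in 37.8% and 3.13%. E2F letters were in 16.2% of member promoters and 3.21% of all promoters. Among the members the CHR and E2F letters divided by role: CHR letters were in 22 of 24 promoters of the cyclin, kinase, checkpoint, centromere, spindle and chromosome members and in 5 of 13 promoters of the licensing and synthesis members, while E2F letters were in 0 of those 24 and 6 of those 13. CCAAT boxes did not divide this way, with at least 1 in 87.5% of the former and 76.9% of the latter promoters and 2 or more in 54.2% and 46.2%. A match is a run of letters and not a shown binding site.

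In the vehicle libraries 33 of the 40 members were called higher than WT and 0 lower by limma with Benjamini-Hochberg adjustment over all genes at 0.05, where 20.8% of all tested genes were called higher and 24.6% lower. The median fold of the 40 members was 2.67, beside 0.984 over all genes tested, and 28 members were called and at least 2-fold higher, against 8.13% of all genes. In 25 members every vehicle library lay above every WT library, against 6.71% of all genes. The 7 members not called were Mcm2, Mcm4, Mcm6, Mcm7, Pcna, Tyms and Bub1b. The members split by role: 26 of the 27 cyclin, kinase, checkpoint, centromere, spindle and chromosome members were called, with a median fold of 3.28, and 7 of the 13 licensing and synthesis members, with a median fold of 1.20. The heatmap of all members shows both the step between WT and the diseased groups and the small group differences of Mcm2, Mcm4, Mcm6, Mcm7 and Pcna.

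**Figure D1:**
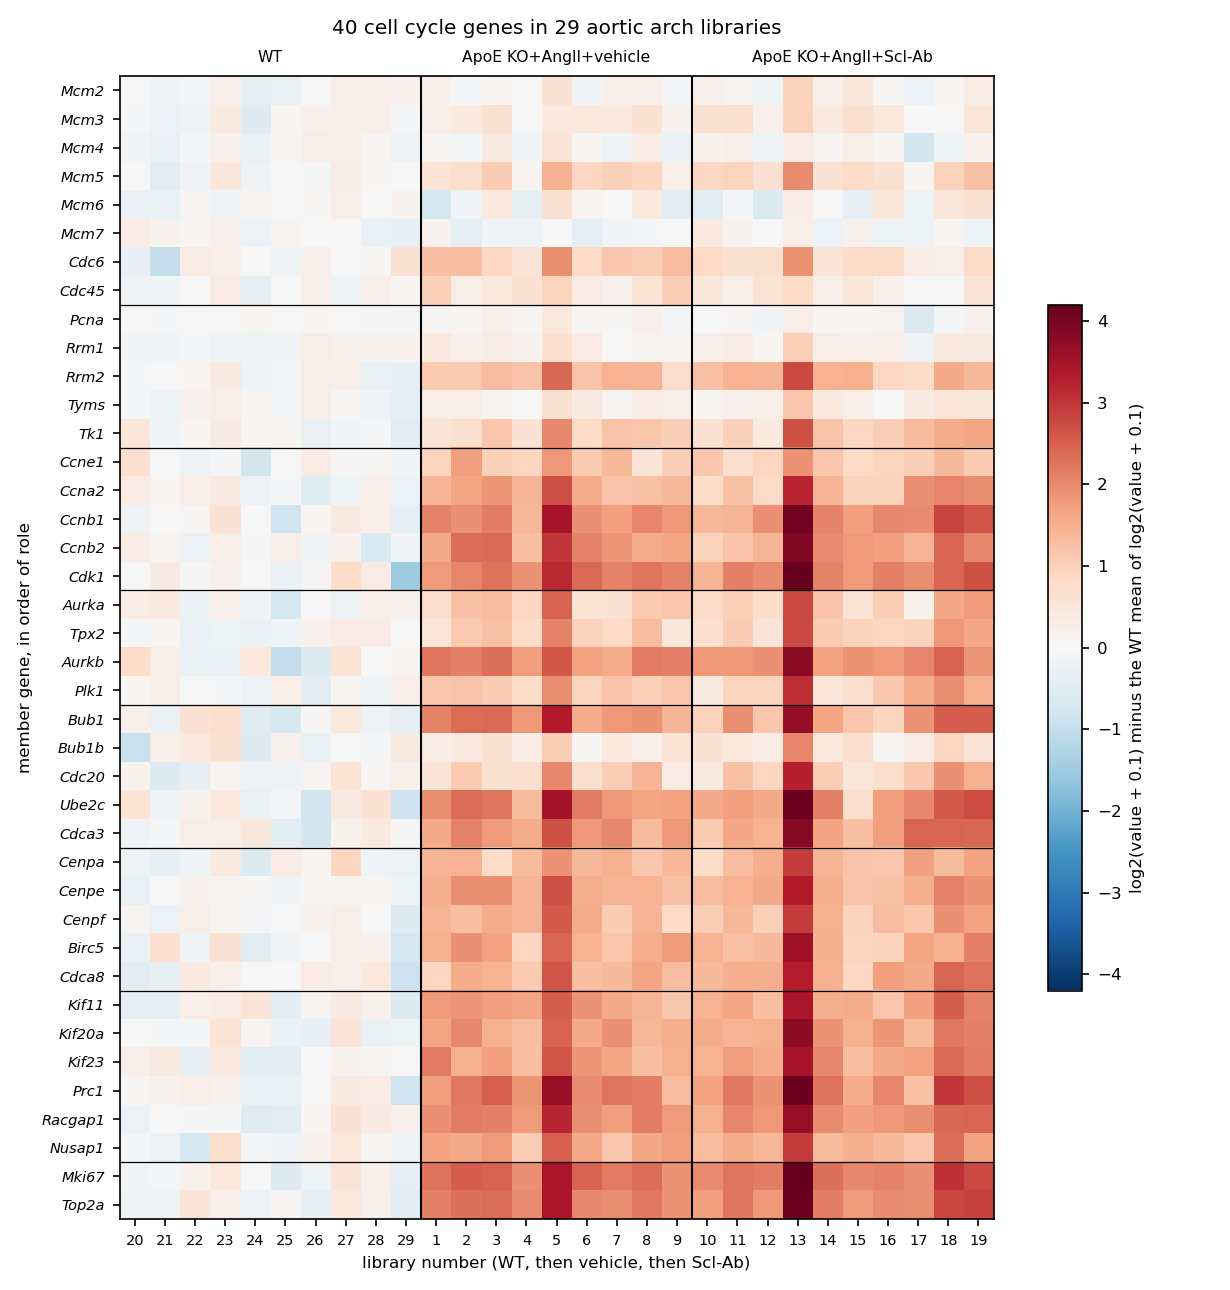
Each row is one of the 40 members, in order of role, and each column one of the 29 libraries; colour gives log2(value + 0.1) minus the WT mean. Red rows fill the vehicle and Scl-Ab columns for the mitotic genes, rows such as Mcm4, Mcm7 and Pcna are mostly pale, and libraries 5 and 13 are the darkest columns of their groups.

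Among the chromosome genes, Mki67, whose protein Ki-67 coats mitotic chromosomes and is the standard mark of dividing cells, had the highest fold of the 40 members against WT. Its value was 0.184 to 0.505 in WT (median 0.299), 1.44 to 4.30 in the vehicle libraries (median 2.01) and 1.45 to 7.44 in the Scl-Ab libraries (median 1.80). Every diseased library lay above every WT library, and libraries 5 and 13 were the highest of their groups. The vehicle libraries were 5.27-fold above WT (log2 2.40 ± 0.23 SE; limma adjusted p = 1.95e-09; 95% interval 3.78 to 7.35). Top2a, the topoisomerase that untangles sister chromosomes, had values of 0.299 to 0.707 in WT (median 0.428), 1.93 to 5.94 in the vehicle libraries (median 2.28) and 1.74 to 9.52 in the Scl-Ab libraries (median 2.24). It too separated the diseased libraries from WT without overlap, at 4.76-fold for vehicle (log2 2.25 ± 0.24 SE; limma adjusted p = 1.25e-08).

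All 5 cyclin and Cdk members were higher in the vehicle libraries than in WT. Cdk1, the kinase that starts mitosis, had values of 0.249 to 1.58 in WT (median 0.937), 3.35 to 8.82 in the vehicle libraries (median 4.14) and 2.58 to 18.9 in the Scl-Ab libraries (median 4.17). The groups did not overlap with WT, and library 13 was the highest of all libraries. The fold for vehicle was 4.66 (log2 2.22 ± 0.27 SE; limma adjusted p = 1.07e-07). Its mitotic partners Ccnb1, at 4.16-fold, and Ccnb2, at 3.91-fold, changed more than Ccna2, the cyclin of S phase and early mitosis, at 3.04-fold, and Ccne1, the cyclin of S phase entry, at 2.25-fold, as a description of the estimates whose differences were not tested. Ccnb2 is uncertain, because a pseudogene, Ccnb2-ps, had a mean value of 1.92 beside 1.95 for Ccnb2 over all libraries.

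The 4 mitotic kinase members were all higher in the vehicle libraries. Aurkb, the kinase of the chromosomal passenger complex that corrects faulty spindle attachments, rose 4.17-fold, to a mean of 1.23 ± 0.308 (SD, n = 9) over 0.231 ± 0.118 (SD, n = 10) in WT (limma adjusted p = 4.42e-08). Its relative at the spindle poles, Aurka, was 2.17-fold higher, the activator of Aurka, Tpx2, 2.04-fold, and the Polo-like kinase Plk1 2.23-fold. Every vehicle library lay above every WT library in each of these 4 genes.

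Of the 5 checkpoint and anaphase-promoting complex members, 4 were called higher in the vehicle libraries. Ube2c, the ubiquitin-conjugating enzyme that works with that complex, had values of 0.377 to 1.25 in WT (median 0.805), 2.12 to 9.81 in the vehicle libraries (median 3.30) and 1.38 to 15.2 in the Scl-Ab libraries (median 3.16). Neither diseased group overlapped with WT, although the lowest Scl-Ab library came close to the highest WT library. The fold for vehicle was 4.23 (log2 2.08 ± 0.31 SE; limma adjusted p = 2.83e-06). Bub1, a spindle checkpoint kinase, was 4.21-fold higher from a WT mean of 0.0934, and its median WT level stands for an estimated 6.35 fragments, so its fold rests on few reads. Cdca3, a trigger of mitotic entry, was 3.62-fold higher, with values of 0.258 to 0.783 in WT and 1.50 to 3.91 in the vehicle libraries and the smallest p of its group (limma adjusted p = 7.11e-07), and Cdc20, the activator of the complex, 1.93-fold. Bub1b, the checkpoint protein BubR1, was 1.36-fold above WT with an interval of 1.01 to 1.82 and was not called (limma adjusted p = 0.0830, and 0.0457 without WT library 23).

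All 5 centromere and passenger members and all 6 spindle and cytokinesis members were called higher in the vehicle libraries. The centromere motor Cenpe rose from 0.106 ± 0.0216 (SD, n = 10) to 0.594 ± 0.262 (SD, n = 9), 3.22-fold (limma adjusted p = 2.08e-07). The survivin gene Birc5 was 3.02-fold higher, its partner Cdca8 (borealin) 2.76-fold, Cenpf 2.76-fold and the centromeric histone Cenpa 2.58-fold. In the spindle group Prc1, which bundles the microtubules of the central spindle, had the highest fold at 4.55 (log2 2.19 ± 0.28 SE; limma adjusted p = 3.20e-07), with values of 0.288 to 0.792 in WT, 1.59 to 8.54 in the vehicle and 1.53 to 11.7 in the Scl-Ab libraries. Racgap1, a part of the centralspindlin complex that places the cleavage furrow, had the smallest p of the group, with values of 0.442 to 1.09 in WT (median 0.666), 2.50 to 6.96 in the vehicle libraries (median 2.93) and 2.07 to 9.60 in the Scl-Ab libraries (median 2.95). It was 4.27-fold higher in the vehicle libraries (log2 2.10 ± 0.21 SE; limma adjusted p = 4.10e-09). The motors Kif11, Kif23 and Kif20a were 3.33-fold, 3.33-fold and 3.28-fold higher, and the spindle protein Nusap1 3.09-fold. All 6 spindle members separated the vehicle libraries from WT without overlap.

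**Figure D2:**
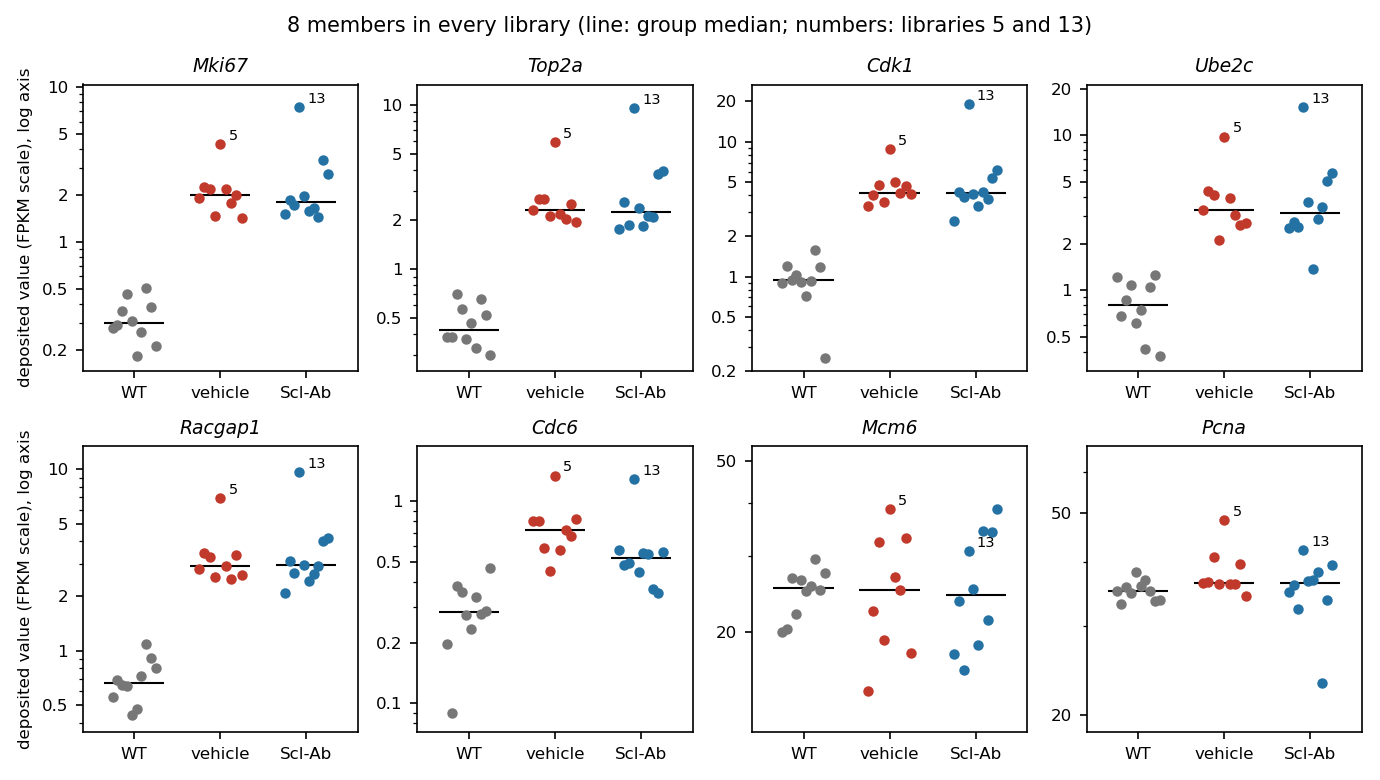
Points are libraries, on a log axis of deposited value, for 8 members; lines are group medians, and the numbers mark vehicle library 5 and Scl-Ab library 13. Mki67, Top2a, Cdk1, Ube2c and Racgap1 do not overlap between WT and the diseased groups, Cdc6 overlaps slightly, and Mcm6 and Pcna overlap, with some diseased libraries outside the WT range.

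The origin licensing members changed little by comparison: 4 of 8 were called higher in the vehicle libraries, and only Cdc6 of them by 2-fold or more. Cdc6, the helicase loader, had values of 0.0898 to 0.468 in WT (median 0.282), 0.450 to 1.34 in the vehicle libraries (median 0.720) and 0.351 to 1.29 in the Scl-Ab libraries (median 0.522). In 8 of 9 vehicle libraries and 7 of 10 Scl-Ab libraries the value was above the highest WT library. The fold for vehicle was 2.19 (log2 1.13 ± 0.20 SE; limma adjusted p = 3.01e-05). Mcm5 was 1.71-fold higher, Cdc45, the helicase activator, 1.52-fold and Mcm3 1.29-fold, the last not called with equal totals or quantile normalization. The helicase subunits Mcm2, Mcm4, Mcm6 and Mcm7 lay between 0.917-fold and 1.09-fold of WT, with intervals from 0.783 to 1.30, and the sign turned with another scaling in Mcm2, Mcm4 and Mcm6. Mcm6 in particular spread over 14.5 to 38.6 in the vehicle libraries around the WT range of 19.9 to 29.6.

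Of the 5 DNA synthesis members, 3 were called higher in the vehicle libraries. Rrm2, the S phase subunit of ribonucleotide reductase, rose 2.50-fold, with a mean of 1.15 ± 0.211 (SD, n = 10) in WT and 3.15 ± 1.31 (SD, n = 9) in the vehicle libraries (limma adjusted p = 1.99e-06), while Rrm1, the constant subunit of the same enzyme, rose 1.20-fold (limma adjusted p = 0.0405). The call of Rrm1 was lost in 11 of the 19 fits that left out 1 library (WT 20 to 25 and vehicle 1, 2, 3, 5 and 6), with adjusted p up to 0.0955. The thymidine kinase Tk1 was 2.03-fold higher, and the thymidylate synthase Tyms 1.20-fold without passing the test (limma adjusted p = 0.0672, and as low as 0.0438 with WT 26 or vehicle 4 left out). Pcna had values of 33.0 to 38.3 in WT (median 35.1), 34.4 to 48.2 in the vehicle libraries (median 36.3) and 23.1 to 42.2 in the Scl-Ab libraries (median 36.3). The ranges overlap, with 3 of 9 vehicle libraries above the highest WT library; the fold for vehicle was 1.08 with an interval of 0.972 to 1.21 (limma adjusted p = 0.228), and its sign turned with a correction for GC content and length.

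The members with the highest levels in healthy tissue had small folds. Pcna and Mcm6 had by far the highest WT means of the members, 35.2 and 24.8, followed by Mcm7, Rrm1, Mcm4, Mcm3, Tyms and Mcm2, which are the 8 members with a WT mean of 2 or more. The highest fold among these 8 was 1.29 in the vehicle libraries, and the lowest among the other 32 was 1.36. With the line drawn at a WT mean of 1 the folds overlapped, with 3.04 the highest of the 15 members above it. The member with the lowest WT mean, Cenpf, was 20th by fold, but the offset of 0.1 exceeds that mean and lowers its fold. Deposited means of Cenpf were 0.0901 in WT and 0.448 in the vehicle libraries. The 3 lowest WT means were those of Cenpf, Bub1 and Cenpe, at 0.0901, 0.0934 and 0.106. Folds are on the scale of value + 0.1, which understates the change of such low genes. Several members share exon bases with a gene on the opposite strand, and the strand used in counting is not given in the sources used here. The longest shared stretches were 1271 bases of Kif20a with Cdc23, 911 of Prc1 with Rccd1, 592 of Ube2c with Tnnc2 and 510 of Ccna2 with Exosc9. Those 4 levels are less certain, though Tnnc2 had a mean value of only 0.383 beside 3.09 for Ube2c. Shorter stretches lay with genes of far higher level, such as 209 bases of Cdc45 with Ufd1 (mean 32.6) and 53 of Cdc20 with Elovl1 (mean 59.3). Mcm7, with a mean of 5.95, shares 321 bases with Ap4m1 (mean 10.8) and 64 with Cops6 (mean 64.1). The levels of Cdc45, Cdc20 and Mcm7 are less certain too, and with them the small fold of Mcm7.

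Most members were also higher in the Scl-Ab libraries than in WT; this comparison uses the same WT libraries as the vehicle comparison and is not independent of it. Here 35 of 40 members were called higher and 0 lower, against 19.1% and 24.1% of all genes tested; trimmed mean scaling moved the share of all calls that were higher from 44.1% to 58.3% and left 35 members called. Of the 40, 28 were called and at least 2-fold higher (8.1% of all genes), and 23 did not overlap with WT (5.03% of all genes). The median fold of the members was 2.83, beside 0.972 over all genes. The 5 not called were Mcm2, Mcm4, Mcm6, Mcm7 and Pcna, with Pcna at 0.995-fold and an interval of 0.895 to 1.11. Mki67 was 5.58-fold above WT (log2 2.48 ± 0.23 SE; limma adjusted p = 6.28e-10), Top2a 5.11-fold, Cdk1 4.88-fold, Prc1 4.83-fold and Ccnb1 4.64-fold. Tyms, at 1.28-fold (limma adjusted p = 0.0101), and Bub1b, at 1.56-fold (limma adjusted p = 0.0107), were called here, but neither was called between Scl-Ab and vehicle (limma adjusted p = 0.679 and 0.639).

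Between Scl-Ab and vehicle, 0 of the 40 members were called in either direction, where 1.65% of all tested genes were called higher and 2.86% lower. The share of those calls that were higher, 36.6%, became 65.7% with equal totals and 48.2% with trimmed mean scaling, each with 0 members called. In none of them was the unadjusted limma p under 0.05, and a Wilcoxon rank sum test over all genes also called 0. The median fold of the members was 1.06, and single folds ran from 0.771 for Cdc6 to 1.27 for Cdca8. Folds were above 1 in 32 of the 40 members, among them 5 of 8 licensing and 4 of 5 DNA synthesis members. The 3 smallest p-values belonged to replication genes that were lower with Scl-Ab: Cdc6 at 0.771-fold (interval 0.582 to 1.02; unadjusted limma p = 0.0691), Cdc45 at 0.851-fold (interval 0.708 to 1.02; p = 0.0859) and Pcna at 0.918-fold (interval 0.824 to 1.02; p = 0.118). For Mki67 the fold was 1.06 with an interval of 0.759 to 1.48, and for Cdk1 1.05 with an interval of 0.715 to 1.54. Over the 40 members the intervals reached from 0.561 for Bub1 to 1.81 for Cdc20, so changes of 2-fold lay outside them, and smaller ones in some members did not.

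**Figure D3:**
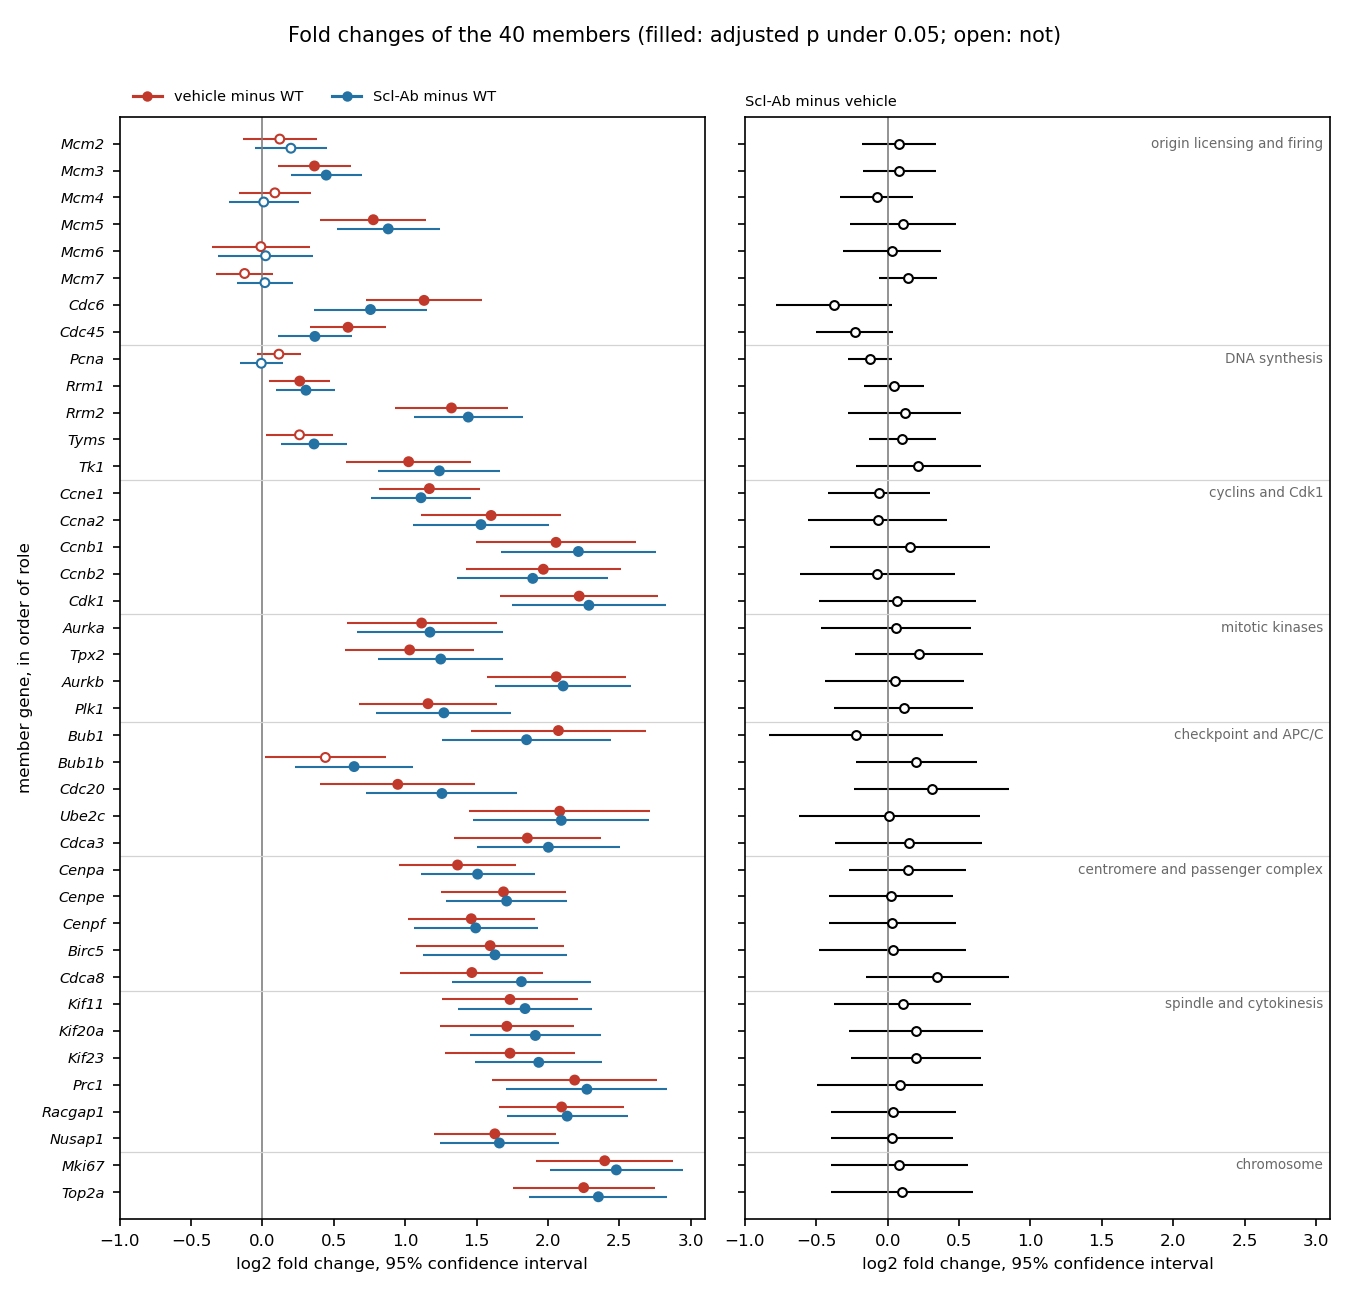
Points are log2 fold changes of the 40 members from the limma model and lines their 95% confidence intervals, at left for vehicle and Scl-Ab against WT and at right for Scl-Ab against vehicle; filled points passed an adjusted p of 0.05. Most mitotic genes lie between about 1 and 2.5 in both comparisons with WT, Mcm2, Mcm4, Mcm6 and Mcm7 near 0, and every interval in the right panel includes 0.

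Within the diseased groups the members varied together by library. In vehicle library 5, 39 members were above the group's median, 37 had their highest value of the group and 19 were at least 2 times the group's median. In Scl-Ab library 13, all 40 were above the group's median, 38 were the highest of the group and 30 were at least 2 times the median, with a median ratio of 3.54. Scl-Ab libraries 18 and 19 came next, at median ratios of 1.49 and 1.34. No WT library had a ratio above 1.19. Scl-Ab library 17 had the lowest value of its group in 13 members, at a median ratio of 0.913. Vehicle library 9 and WT library 29 were lowest of their groups in 12 each. The estimated depth of library 17, 31.8 fragments for 1 unit in 2 kb, was the lowest of the 29 libraries. Without library 5 the vehicle mean of Mki67 was 1.92 ± 0.326 (SD, n = 8), and without library 13 the Scl-Ab mean was 1.99 ± 0.650 (SD, n = 9), compared with 2.18 ± 0.852 and 2.54 ± 1.83 with them. Leaving out both, a choice made after the data were seen, still gave 33 members higher in vehicle than WT, 35 higher in Scl-Ab than WT and 0 between Scl-Ab and vehicle.

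Libraries 5 and 13 shared some cell type marker traits and differed in others. Both had the lowest adipocyte sums of their groups (348 and 549) and low T cell sums (2.51 and 2.77). Both also had the lowest thymocyte sums (3.69 and 5.47), but these were nearly all Cd1d1 (3.57 and 5.27). In each group Cd1d1 was lowest and highest in the same libraries as the adipocyte gene Adipoq. Of the fibroblast and smooth muscle markers, only the collagen gene Col1a1 and the smooth muscle regulator Myocd were highest of their groups in both libraries. The fibroblast sums (2544 and 3686) lay inside the group ranges (1849 to 4906 and 1340 to 5826). So did the smooth muscle sum of library 13 (9766). Library 5 had the highest erythroid sum of the vehicle libraries (1326, range of the group 133 to 1326) and the highest smooth muscle sum (16635), with the lowest macrophage sum (1000). Library 13 had the highest sum of granulocyte markers of its group (26.7, range 1.86 to 26.7), carried by S100a8 and S100a9. Of the thymocyte markers 7 of 8, Rag1 and Dntt among them, and of the granulocyte precursor markers 5 of 8, Elane and Mpo among them, stayed under 0.5 in all 29 libraries. The estimated depth of libraries 5 and 13, at 35.4 and 42.9 fragments for 1 unit in 2 kb, was inside the range of the others. The part of these markers in the members' levels was not tested.

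**Figure D4:**
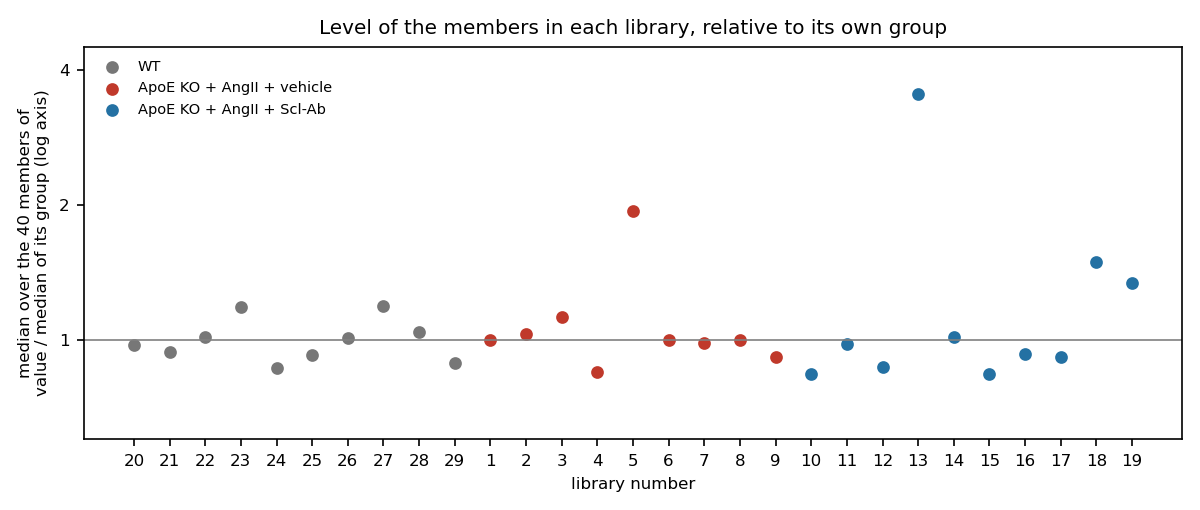
Points are libraries, coloured by group; the vertical log axis is the median over the 40 members of the value divided by the median of the library's own group. Libraries 5 and 13 sit at 1.93 and 3.54, and libraries 18 and 19 are the next highest.

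Beyond the members, 89 other cell cycle genes were followed in 5 lists. In the vehicle libraries 50 of the 88 tested were called higher than WT and 13 lower, beside 20.8% and 24.6% of all genes, and in the Scl-Ab libraries 50 and 16, beside 19.1% and 24.1%. These shares of all genes are the background for the count of each list, and the counts of lower genes were not above them in the 88 as a whole. Most other mitosis genes were higher too: 23 of 26 rose and 1 fell in the vehicle libraries, with a median fold of 2.97. Spc25 and Pbk, a kinetochore protein and a mitotic kinase, had the highest folds of this list at 5.12 and 4.81. Pttg1, securin, which blocks the separation of sister chromosomes until anaphase, went the other way and fell to 0.746-fold (limma adjusted p = 1.61e-07). Its values were 62.7 to 75.7 in WT and 48.2 to 55.9 in the vehicle libraries, without overlap. Of 19 other replication genes tested, 9 were higher and 3 lower in the vehicle libraries, with a median fold of 1.30. Uhrf1, which carries DNA methylation through replication, was 3.50-fold and the helicase factor Mcm10 2.16-fold higher, while the primase subunit Prim1 fell to 0.608-fold and the polymerase subunit Pold1 to 0.677-fold.

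Among 15 transcriptional regulators of the cycle, 7 were higher and 3 lower in the vehicle libraries, the latter near the 24.6% of all genes. E2f2 and E2f8, an activator and a repressor of S phase genes, rose 2.80-fold (limma adjusted p = 5.49e-09) and 3.45-fold (limma adjusted p = 1.44e-07). E2f2 values were 0.106 to 0.274 in WT, 0.529 to 1.02 in the vehicle and 0.444 to 1.16 in the Scl-Ab libraries, with no overlap with WT. Foxm1, an activator of mitotic genes, was 2.60-fold higher, from 0.531 ± 0.0824 (SD, n = 10) to 1.60 ± 0.642 (SD, n = 9; limma adjusted p = 3.79e-06). Its partner in that programme Mybl2 was 1.31-fold above WT and not called (limma adjusted p = 0.0922), and the MuvB core subunits Lin37 and Lin52 fell to 0.714-fold and 0.796-fold.

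Of 12 other drivers of the early cycle, 5 were higher and 2 lower in the vehicle libraries, where 20.8% and 24.6% of all genes were. Ccnd1, the cyclin D gene that couples growth signals to the cycle, had values of 1.21 to 5.74 in WT (median 3.42), 5.54 to 17.1 in the vehicle libraries (median 12.3) and 4.53 to 17.6 in the Scl-Ab libraries (median 10.6). It was 3.45-fold higher in the vehicle libraries (log2 1.79; limma adjusted p = 7.27e-06), with a slight overlap with WT. Myc rose 2.62-fold (limma adjusted p = 2.18e-05). Another D-type cyclin, Ccnd3, fell to 0.773-fold (limma adjusted p = 0.000608), and Ccnd2, at 0.973-fold, was not called.

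Of 16 inhibitors and brakes, 6 were higher and 4 lower in the vehicle libraries, the latter a share like the 24.6% of all genes. Cdkn1b, the inhibitor p27, fell from 39.9 ± 5.56 (SD, n = 10) to 27.5 ± 4.05 (SD, n = 9; 0.690-fold; limma adjusted p = 9.18e-06). The retinoblastoma relative Rbl1 rose 1.88-fold, and Cdkn2a, the gene of p16 and p19Arf, rose 2.82-fold at low values, from 0.131 ± 0.109 (SD, n = 10) to 0.546 ± 0.338 (SD, n = 9; limma adjusted p = 0.00530). Cdkn1c, the inhibitor p57, at 0.884-fold, was not called (limma adjusted p = 0.341). Cdkn1a, the inhibitor p21, had values of 15.6 to 159 in WT (median 29.04), 49.1 to 155 in the vehicle libraries (median 79.4) and 26.7 to 82.4 in the Scl-Ab libraries (median 37.1). It was 2.38-fold higher in vehicle than WT (limma adjusted p = 0.00283), although WT library 20, at 159, lay above all vehicle libraries and WT library 21, at 100.4, among them. At 1.06-fold of WT in the Scl-Ab libraries it was not called.

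**Figure D5:**
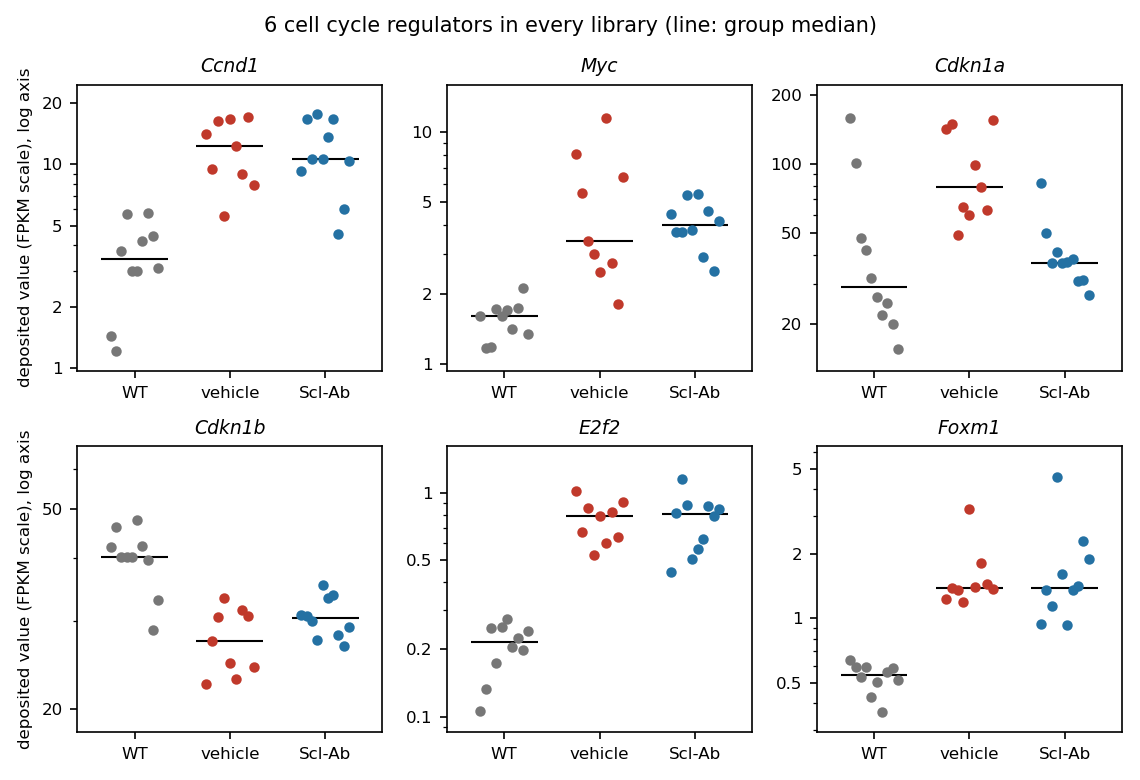
Points are libraries, on a log axis of deposited value, for 6 regulators of the cell cycle that are not members; lines are group medians. Ccnd1, Myc, E2f2 and Foxm1 are higher and Cdkn1b lower in both diseased groups, while Cdkn1a is high in the vehicle libraries and in WT libraries 20 and 21.

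Between Scl-Ab and vehicle, 3 of the 88 tested genes outside the members were called, 2 higher and 1 lower, beside 1.65% and 2.86% of all genes, so the count is no result about cell cycle genes as a group. Cdkn1a was lower with Scl-Ab, at 0.447-fold (log2 -1.16; limma adjusted p = 0.0421), a call lost in 12 of the 19 fits that each left out 1 library of these groups, namely vehicle 1, 2, 5, 6 and 9 and Scl-Ab 12 and 14 to 19, with adjusted p between 0.0246 and 0.0906. Under the other alternatives its adjusted p was 0.0198 to 0.0717. Of 7 endothelial markers 2 were also lower with Scl-Ab, Pecam1 at 0.625-fold (limma adjusted p = 0.0168) and Vwf at 0.577-fold (limma adjusted p = 0.0371), and 0 were higher; their summed values were 177 to 251 in the vehicle and 94.2 to 245 in the Scl-Ab libraries, and their part in the Cdkn1a difference was not tested. Cdk2, the partner of cyclins E and A, was 1.27-fold higher with Scl-Ab (7.24 ± 0.659 against 9.27 ± 1.61; SD, n = 9 and 10; limma adjusted p = 0.0253). Gins4, a subunit of the helicase complex, was 1.14-fold higher (12.3 ± 0.875 against 14.0 ± 1.02; limma adjusted p = 0.0273). Fitted on these groups alone, Cdk2 and Gins4 were not called (limma adjusted p = 0.0642 and 0.0933), and Gins4 was not called without vehicle library 6 or Scl-Ab library 18 (0.0577 and 0.0509), with equal totals (0.103) or by the Wilcoxon test (0.103). WT values of these 2 genes, 8.39 ± 1.08 and 14.8 ± 0.783 (SD, n = 10), lay nearer to the Scl-Ab than to the vehicle mean.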

How the data were processed

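RNA from the aortic arch was sequenced from stranded mRNA libraries, 1 deposited file per library. The authors deposited FPKM-type values in a column named FPKQ, which is not spelled out in the file headers; from the values they are per kilobase and brought to a near-equal upper quantile (85th percentile 6.99 to 7.30). GRCm38 and DESeq2 1.10.1 are named without a role per the submitters' processing notes, and no aligner or counter is given in the sources used here. Group and number of each library came from the titles and treatment labels.

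Values were tested as log2(value + 0.1) with limma 3.58.1 (R 4.3.3; trend and robust empirical Bayes), 1 mean per group over all 29 libraries, for genes with a mean of at least 0.1. The small offset and the filter, which does not look at groups, were chosen because many members have low values. Adjusted p-values are Benjamini-Hochberg over all 18787 genes tested, called under 0.05, in 3 comparisons. The model was tested on simulated data. No 2 libraries of a group were near-identical (smallest root mean square log2 difference 0.232). Gene models came from GENCODE and promoters from RefSeq. Members, lists and tests were chosen with earlier results of these data known. Members given in full were Mki67, Top2a, Pcna, the member of each role group with the smallest p or largest fold in vehicle against WT, and the 3 with the smallest p between Scl-Ab and vehicle; other genes were named by the same kind of rule per list, with Ccnd1 and the inhibitors Cdkn1a, Cdkn1b, Cdkn1c and Cdkn2a always given. Pttg1, Prim1, Pold1, Ccnd2, Ccnd3, Foxm1, Mybl2, Lin37 and Lin52 were named after their values were seen.

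Alternatives were offsets of 0.5 and 1, no filter, a filter of 1 in 9 libraries, equal totals, trimmed mean scaling, quantile normalization, removal of a GC and length trend, only the compared groups, array weights, a Wilcoxon rank sum test, and each library left out.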

Additional observations from a re-analysis of the deposited data

Results flagged for a closer look

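Single libraries lay apart from the rest of their group in 60 of 120 groups of values tested over the 40 members, by the gap to the nearest library relative to the group's range (Dixon's 95% value); chance alone sets a library apart in about 1 in 20 groups, and the members share their library. Scl-Ab library 13 was the high one in 34 of these, with values of Mcm2 4.13, Mcm5 5.67, Cdc6 1.29, Rrm1 10.1, Rrm2 8.21, Tyms 5.06, Tk1 10.2, Ccne1 1.95, Ccna2 12.8, Ccnb1 7.08, Ccnb2 9.42, Cdk1 18.9, Aurka 4.39, Tpx2 7.13, Aurkb 4.24, Plk1 5.06 and Bub1 2.26, and further of Bub1b 3.78, Cdc20 9.78, Ube2c 15.2, Cdca3 8.76, Cenpa 11.95, Cenpe 1.98, Cenpf 1.35, Birc5 15.2, Cdca8 6.95, Kif11 3.75, Kif20a 5.27, Kif23 3.90, Prc1 11.7, Racgap1 9.60, Nusap1 4.80, Mki67 7.44 and Top2a 9.52. Vehicle library 5 was the high one in 25, with values of Mcm2 3.19, Cdc6 1.34, Pcna 48.2, Rrm2 6.48, Tk1 6.38, Ccna2 9.11, Ccnb1 4.64, Ccnb2 5.04, Cdk1 8.82, Aurka 3.60, Tpx2 4.31, Plk1 2.26, Bub1 1.73, Ube2c 9.81, Cdca3 3.91, Cenpe 1.23, Cenpf 1.03, Cdca8 4.30, Kif11 1.99, Kif20a 2.13, Prc1 8.54, Racgap1 6.96, Nusap1 3.53, Mki67 4.30 and Top2a 5.94. Scl-Ab library 17 was low in Pcna, at 23.1, with the next library at 32.4.

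Of 45 such tests of the other named cell cycle genes, 10 set a library apart. Library 13 was high in E2f8 1.26, Mcm10 0.852, Rbl1 2.30, Spc25 6.65 and Uhrf1 4.38, and library 5 in E2f8 0.961, Pbk 7.41, Spc25 5.83 and Uhrf1 2.81. Scl-Ab library 10 was high in Cdkn1a, at 82.4, with the next library at 49.7.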

How the results depend on the processing

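No paired analysis was possible because each library number in the titles occurs once in the series; the titles also hold a 4-digit code whose last digits recur between vehicle and Scl-Ab, but the labels do not explain it and it was not used to pair libraries. The number of members called higher ranged from 29 to 36 in vehicle and from 31 to 35 in Scl-Ab against WT over the alternatives, and from 32 to 34 and at 35 when each library was left out. Under all of these, 0 members were called lower than WT and 0 differed between Scl-Ab and vehicle. Under other scalings the sign turned only for members that were not called. For Pcna it also turned with array weights, by medians in the Wilcoxon test or with single libraries left out. Pcna in vehicle against WT went from a log2 of 0.12 to -0.077 with the GC and length trend removed. Pcna in Scl-Ab against WT, at -0.0080, became 0.038 with equal totals, 0.081 with trimmed mean scaling, 0.057 with quantile normalization, 0.046 with array weights and 0.052 by medians in the Wilcoxon test, and ranged from -0.038 to 0.058 with each library left out, turning positive without WT library 24, Scl-Ab library 12 or Scl-Ab library 17. Between Scl-Ab and vehicle it went from -0.12 to 0.0024 by medians. With trimmed mean scaling Bub1b, Pcna and Tyms were also called in vehicle against WT, and with equal totals or quantile normalization Mcm3 and Rrm1 were not, nor was Rrm1 with the GC and length trend removed. In Scl-Ab against WT quantile normalization lost Bub1b, Cdc45, Rrm1 and Tyms. Against vehicle, 310 genes of all tested were higher and 538 lower with Scl-Ab, 79 and 147 when only those groups were fitted, and 188 and 98 with equal totals. Depth limits the lowest members: a value of 0.1 in 2 kb stands for 3.18 to 4.37 fragments.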

Other observations

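Cdkn1a values outside the vehicle group were highest in the libraries with the lowest numbers: 158.8 and 100.4 in WT libraries 20 and 21 and 82.4 and 49.7 in Scl-Ab libraries 10 and 11, against 15.6 in WT library 29 and 26.7 in Scl-Ab library 19. The vehicle group did not follow this order. Its highest value, 155, was in library 9, the last by number, ahead of libraries 1 and 2, and its lowest, 49.1, in library 3. What the numbers stand for is not given in the labels, and their part in the difference of Cdkn1a between groups was not tested. This was noticed after the values were seen.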
